A study of Caenorhabditis elegans with 83 samples.

Results

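The X chromosome of Caenorhabditis elegans was surveyed for sites of 3 proteins of chromatin, namely SET-26, HCF-1 and the deacetylase HDA-1, in 22 peak lists from CUT&RUN. In this assay a nuclease tethered by an antibody cuts out the DNA around a bound protein. Every unique peak on X was taken, except those in the stretch from 0.3 to 1.6 Mb, in each genotype and on each food. This gave 26548 peaks of 201446 in all, against 172100 on the 5 autosomes, 2699 in the X stretch left out and 99 on mitochondrial DNA.

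All worms were day 1 adults, and each list was called by the authors on the merged replicates of 1 group, so no spread between replicates could be given. The tagged factors were rwIs27[set-26::ha], rwIs33[hcf-1::gfp::3xflag] and syb5185[hda-1::gfp::ha]. On OP50 bacteria, 6 lists set each factor against antibody background, that is, the same HA or FLAG antibody in untagged worms, once in germline-less glp-1(e2141) worms and once in wild type worms with a germline (background strain N2). The other 16 lists set a factor against histone H3 of the same worms. Controls for these were the tagged strains on glp-1 RNAi (no germline) or on the empty vector L4440 (germline present), and HCF-1 also in glp-1(e2141) on OP50. Mutant lists held HCF-1 with set-26(tm2467) in these same 3 settings, HDA-1 with set-26(tm2467) or hcf-1(pk924), and SET-26 with hcf-1(pk924), the last 2 factors on glp-1 RNAi and on L4440. The genotype field of the HDA-1 samples spells the set-26 allele tm42467, and their titles, with tm2467, were followed. Whole worms were used, so a list holds the sum of all tissues present, and a weaker signal per cell cannot be told apart from fewer cells with signal. The lists hold no expression values, so the loss of the germline was not checked here.

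As background, C. elegans hermaphrodites carry a pair of X chromosomes and males a single one, and the dosage compensation complex lowers transcription from both hermaphrodite X chromosomes in somatic cells. In the germline the X is largely silent, and genes with germline functions are scarce on it. SET-26 binds histone H3 trimethylated at lysine 4, a mark of active promoters, HCF-1 is a conserved cofactor of chromatin enzymes, while HDA-1 belongs to the class I histone deacetylases, which remove acetyl groups from histones.

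The sites on which the results turn are shown first as DNA, each as 121 bases centred on the summit of the peak in glp-1(e2141), read from the plus strand of the WBcel235 genome (RefSeq). Capitals mark GAGAGA or its reverse complement TCTCTC, a repeat that was searched on both strands. The first group holds the strongest X sites of SET-26 that were not inside an exon. The windows upstream of AC8.10 and AC8.3 were identical, and that sequence occurred at 2 places in the genome, so reads could not be assigned to 1 of them with certainty.
AC8.10, X:239349-239469: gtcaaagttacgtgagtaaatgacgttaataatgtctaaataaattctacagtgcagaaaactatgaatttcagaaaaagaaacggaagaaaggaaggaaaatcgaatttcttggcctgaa
AC8.3, X:229933-230053: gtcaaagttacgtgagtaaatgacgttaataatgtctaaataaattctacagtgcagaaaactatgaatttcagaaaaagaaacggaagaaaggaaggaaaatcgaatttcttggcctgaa
R07E4.3/R07E4.5, X:5953331-5953451: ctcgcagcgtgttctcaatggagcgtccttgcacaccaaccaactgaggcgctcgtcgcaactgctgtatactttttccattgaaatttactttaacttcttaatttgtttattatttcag
C27C12.4/C27C12.1, X:14853945-14854065: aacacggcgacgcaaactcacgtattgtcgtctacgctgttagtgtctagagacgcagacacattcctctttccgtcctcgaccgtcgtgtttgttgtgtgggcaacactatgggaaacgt
vha-15, X:2237578-2237698: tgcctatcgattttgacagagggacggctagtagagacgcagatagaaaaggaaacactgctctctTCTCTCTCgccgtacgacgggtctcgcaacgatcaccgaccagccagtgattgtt
asb-2, X:4469527-4469647: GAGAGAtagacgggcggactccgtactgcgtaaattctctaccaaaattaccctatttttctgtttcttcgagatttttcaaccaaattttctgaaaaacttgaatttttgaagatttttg

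The second group holds sites that led the HDA-1 or HCF-1 list and, for kin-29, bet-2, W01H2, sma-9, ain-1 and R106, lay in loci with a peak in every one of the 22 lists. The summits of HCF-1 at bet-2, acl-1, W01H2 and pqn-39 and those of HDA-1 at the other 4 were used. None of these windows, or of those above, overlapped an annotated exon.
bet-2, X:10568752-10568872: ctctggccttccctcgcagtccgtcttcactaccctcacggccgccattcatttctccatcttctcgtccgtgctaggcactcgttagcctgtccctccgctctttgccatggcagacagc
acl-1/F59F4.3, X:15849563-15849683: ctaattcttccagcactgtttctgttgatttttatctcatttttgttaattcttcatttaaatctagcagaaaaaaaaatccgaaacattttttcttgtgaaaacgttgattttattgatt
W01H2 non-coding RNA genes, X:4222913-4223033: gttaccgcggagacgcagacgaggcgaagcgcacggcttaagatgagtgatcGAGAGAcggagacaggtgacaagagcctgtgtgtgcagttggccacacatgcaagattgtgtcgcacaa
pqn-39, X:13969547-13969667: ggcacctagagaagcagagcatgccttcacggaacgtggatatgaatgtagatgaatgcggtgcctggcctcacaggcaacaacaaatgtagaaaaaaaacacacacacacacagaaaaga
kin-29, X:2852558-2852678: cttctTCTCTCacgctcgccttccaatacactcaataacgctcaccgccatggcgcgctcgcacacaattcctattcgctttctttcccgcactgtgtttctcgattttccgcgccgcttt
sma-9, X:10766301-10766421: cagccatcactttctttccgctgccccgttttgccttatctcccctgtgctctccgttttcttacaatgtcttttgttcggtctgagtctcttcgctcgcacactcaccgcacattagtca
R106 non-coding RNA genes, X:17480121-17480241: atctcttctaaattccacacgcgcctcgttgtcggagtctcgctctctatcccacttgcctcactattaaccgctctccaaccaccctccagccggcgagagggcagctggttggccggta
ain-1/F59C12.3, X:16612489-16612609: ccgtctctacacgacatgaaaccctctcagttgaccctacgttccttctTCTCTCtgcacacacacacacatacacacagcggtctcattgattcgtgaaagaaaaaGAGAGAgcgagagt

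Against antibody background HDA-1 was dense on X, while SET-26 and HCF-1 were sparse on it. In glp-1(e2141), HDA-1 had 2677 X peaks, or 163 per Mb, against 112.5 per Mb on the autosomes, which makes a ratio of 1.45 (95% interval 1.39 to 1.51). No autosome reached this density, the highest being chromosome III at 125 per Mb. SET-26 had 1179 X peaks, or 71.8 per Mb against 147, a ratio of 0.49 (0.46 to 0.52), and each autosome lay above X, from 83.5 per Mb on V to 206 on III. HCF-1 had 1168 X peaks at 71.1 per Mb against 106.5, a ratio of 0.67 (0.63 to 0.71), below the lowest autosome at 78.6. Intervals of shares and ratios here are exact binomial (Clopper-Pearson) intervals or derived from them, and those of differences are Newcombe intervals. All cover counting error only. Gene density was 154 protein-coding genes per Mb on X and 209 on the autosomes.

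With a germline, the ratio was lower for all 3 factors. In wild type, HDA-1 had 1725 X peaks and a ratio of 1.33 (1.26 to 1.40), SET-26 had 555 and 0.25 (0.23 to 0.27), and HCF-1 had 310 and 0.19 (0.16 to 0.21). In the H3 lists HDA-1 again had the highest ratio. The glp-1 RNAi ratios were 1.46 (HDA-1), 0.46 (SET-26) and 0.68 (HCF-1), and on L4440 they were 1.34, 0.25 and 0.25. HCF-1 in glp-1(e2141) against H3 stood at 0.92, above the 0.67 of the same worms against antibody background. In that H3 list X held 119.9 HCF-1 peaks per Mb, within the autosomal range of 100.8 (V) to 169 (III). On glp-1 RNAi X held 74.5 HCF-1 peaks per Mb, just above V at 73.2. In the mutant lists the ratio ran from 1.34 to 1.63 for HDA-1, from 0.28 to 0.39 for SET-26 and from 0.13 to 0.97 for HCF-1.

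**Figure D1:**
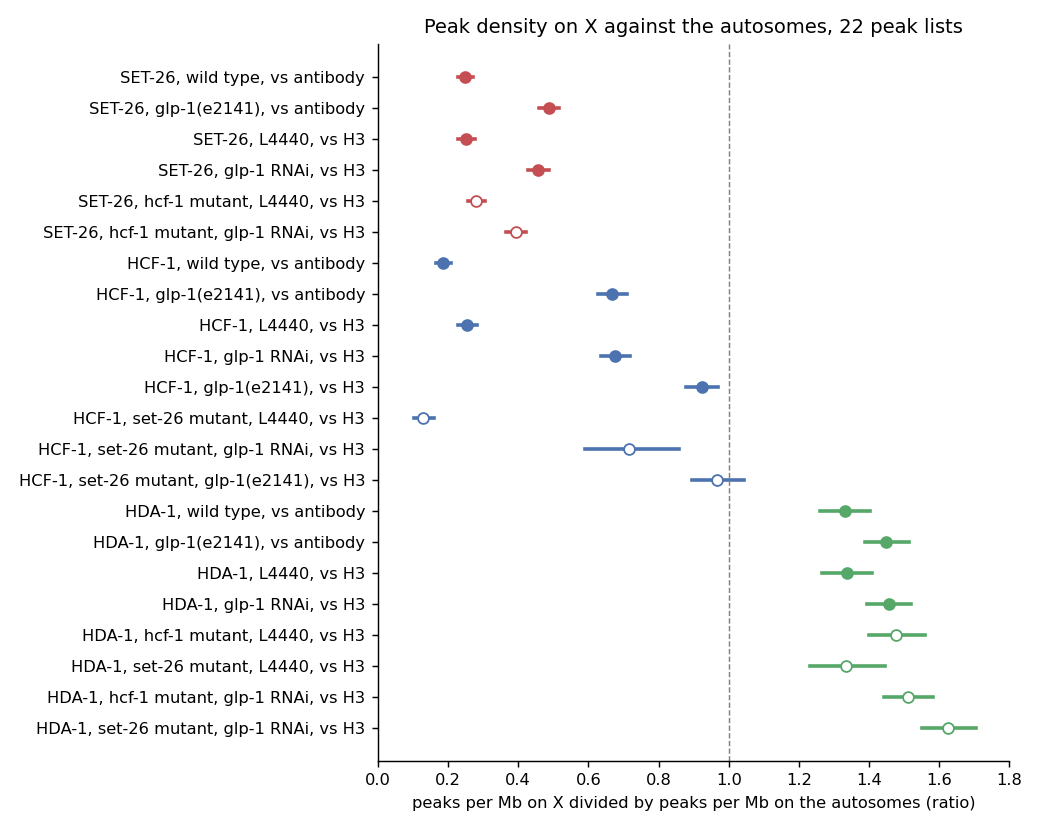
Peaks per Mb on X divided by peaks per Mb on the autosomes for the 22 lists, with 95% intervals for counting error. Filled circles are control lists and open circles mutant lists, and the dashed line marks equal density. All 8 HDA-1 lists lie above 1, all 6 SET-26 lists below 0.5.

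Fold enrichment is the authors' ratio of fragment pileup at the summit to the local background. Its median among X peaks in glp-1(e2141) was 2.24 for HDA-1, 1.92 for SET-26 and 1.89 for HCF-1, against 2.28, 2.104 and 2.23 on the autosomes. The highest X values were 24.3, 15.9 and 8.67. Together the X peaks covered 10.99% of X in the case of HDA-1, 3.73% for SET-26 and 3.47% for HCF-1, against 6.81%, 11.2% and 6.74% of the autosomes. When X was cut into 5 equal parts, the leftmost was the sparsest for every factor. It held 113.2 HDA-1 peaks per Mb outside the excluded stretch against 153 to 185 in the others, and 28.1 HCF-1 peaks per Mb against 73.9 to 83.8.

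In glp-1(e2141) nearly every HCF-1 peak on X overlapped an HDA-1 peak, while 56.1% of HDA-1 X peaks overlapped neither partner. The HCF-1 count was 1151 of 1168, with an overlap of at least 1 bp, or 98.5% (97.7 to 99.1) beside 82.5% on the autosomes and 84.4% of the whole list. The autosomes ran from 76.9% to 90.6%. SET-26 X peaks overlapped HDA-1 in 946 of 1179 cases, or 80.2%, beside 52.2% on the autosomes (range 45.5% to 64.9%) and 54.8% of the whole list. Of the SET-26 X peaks, 741 overlapped HCF-1, or 62.8% beside 54.4% on the autosomes and 54.8% of the whole list, a difference of 8.46 points (5.53 to 11.3). Where only peaks of at least 3-fold were taken in both lists, that difference turned to -33.95 points.

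In the other direction the shares were low on X. X held 2677 HDA-1 peaks but 1179 of SET-26 and 1168 of HCF-1, which limits how far the HDA-1 shares can rise. The autosomes held 9290, 12157 and 8791. Such HDA-1 shares thus partly restate the densities above, and the same limit applies to the HDA-1 shares in the other worms below. On the autosomes HDA-1 had fewer peaks than SET-26 in every set of control lists. That limits the autosomal share of SET-26 in HDA-1, so its contrast with X also partly restates the densities. HDA-1 X peaks overlapped SET-26 in 862 of 2677 cases, or 32.2%, beside 68.1% on the autosomes and 59.9% of the whole list. They overlapped HCF-1 in 986 cases, or 36.8%, beside 76.5% and 66.8%. HCF-1 X peaks overlapped SET-26 in 736 cases, or 63.0%, beside 77.7% and 76%. For both HDA-1 shares and for HCF-1 in SET-26, X lay below every autosome. The lists of SET-26 and HDA-1 in glp-1(e2141) were called against the same HA background samples. In the glp-1 RNAi lists, whose H3 controls were separate, 780 of 1039 SET-26 X peaks overlapped HDA-1, or 75.1%, beside 46.7% on the autosomes and 49.2% of the whole list. Of 2670 HDA-1 X peaks there, 718 overlapped SET-26, or 26.9%, beside 63.0% and 54.7%.

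The wild type lists showed the same contrasts between X and autosomes, except for SET-26 peaks in HCF-1. HCF-1 X peaks overlapped HDA-1 in 302 of 310 cases, or 97.4%, beside 46.5% on the autosomes and 48.4% of the whole list. For SET-26 in HDA-1 the count was 451 of 555, or 81.3%, beside 33.9% and 36.3%. The wild type autosomes held 6517 HDA-1 peaks but 11252 of SET-26 and 8422 of HCF-1, which limits both of these autosomal shares. HCF-1 in SET-26 gave 241 of 310, or 77.7%, beside 86.8% and 86.5%. HDA-1 peaks overlapped SET-26 in 434 of 1725 cases, or 25.2%, beside 66.2% and 57.4%, and HCF-1 in 280 cases, or 16.2%, beside 61.7% and 51.7%. SET-26 in HCF-1 gave 241 of 555, or 43.4%, beside 46.1% and 45.8%, and the interval of that difference, -6.85 to 1.57 points, included 0. The wild type lists of SET-26 and HDA-1 also had 1 background sample in common.

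The H3 lists differed from these in part. The L4440 list of HCF-1 differs in makeup between X and the autosomes, as given below before the mutants. On L4440, SET-26 X peaks overlapped HCF-1 in 170 of 481 cases, or 35.3%, beside 46.8% on the autosomes and 46.4% of the list. That difference of -11.4 points (-15.7 to -6.93) ran opposite to the 11.2 points (8.13 to 14.3) on glp-1 RNAi, where the count was 659 of 1039, or 63.4%, beside 52.2% and 53.4%. HCF-1 X peaks overlapped HDA-1 in 281 of 336 cases on L4440, or 83.6%, beside 48.9% on the autosomes and 49.5% of the list (a difference that turned to -4.68 points with peaks of at least 3-fold), and in 1173 of 1223 on glp-1 RNAi, or 95.9%, beside 71.4% and 73.2%. In SET-26 they lay in 51.2% of cases on L4440, beside 86.1% and 81.7%, and in 673 of 1223 on glp-1 RNAi, or 55.03%, beside 78.5% and 74.1%. SET-26 X peaks overlapped HDA-1 on L4440 in 421 of 481 cases, or 87.5%, beside 37.6% on the autosomes and 40.2% of the list. HDA-1 X peaks there overlapped SET-26 in 393 of 1711 cases, or 23.0%, beside 61.6% and 53.4%, and HCF-1 in 269, or 15.7%, beside 51.5% and 44.4%. On glp-1 RNAi they overlapped HCF-1 in 987 of 2670 cases, or 36.97%, beside 68.9% and 62%.

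**Figure D2:**
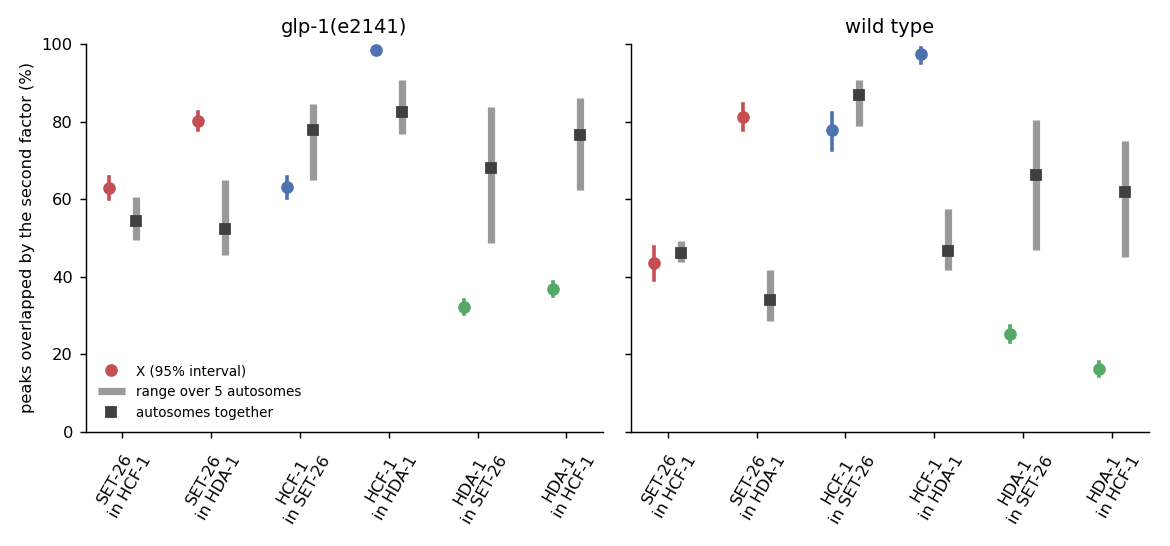
Share of each factor's peaks overlapped by a peak of a second factor, for germline-less worms (left) and wild type (right). Coloured circles give X with its 95% interval, dark squares the autosomes together and grey bars the range over the 5 autosomes. HCF-1 peaks in HDA-1 reach 98.5% and 97.4% on X, and HDA-1 peaks in SET-26 or HCF-1 lie below every autosome. The latter shares are limited by the smaller X lists of SET-26 and HCF-1. Autosomal shares of SET-26 in HDA-1 are limited by the smaller autosomal lists of HDA-1.

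Merging the glp-1(e2141) peaks of the 3 factors gave 2913 X loci, whose makeup differed from that of 15012 autosomal loci. HDA-1 alone held 1502 X loci, or 51.6% (49.7 to 53.4), beside 10.9% of autosomal loci. All 3 factors met at 669 X loci, or 23.0%, beside 35.6%. SET-26 alone held 228, or 7.83%, beside 33.2%. Loci of HCF-1 with HDA-1 numbered 311, of SET-26 with HDA-1 186, of HCF-1 alone 12 and of SET-26 with HCF-1 but no HDA-1 just 5. HDA-1 peaks that met both partners on X were stronger, with a median of 3.93-fold, than those that met neither, at 1.89-fold. On the autosomes these medians were 2.79-fold and 1.75-fold.

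A promoter window was taken from 2000 bp before to 500 bp after the start of a protein-coding gene, and such windows covered 33.9% of X and 41.2% of the autosomes. Of the X loci shared by all 3 factors, 72.2% overlapped a promoter window, near the 71.6% on the autosomes. The HDA-1-only loci did so in 43.5% of cases and the SET-26-only loci in 25.4%, beside 50.6% and 46.4% on the autosomes. By factor, 660 of 1179 SET-26 X peaks overlapped a promoter window, or 56.0%, beside 59.1% on the autosomes and 58.9% of the whole list. This difference of -3.10 points (-6.08 to -0.15) turned to 4.10 with peaks of at least 3-fold, to 3.29 with a window of 500 bp upstream to 100 bp downstream and to 0.086 by summits. HCF-1 had 699 of 1168, or 59.8%, beside 65.8% and 65.1%. HDA-1 had 1404 of 2677, or 52.4%, beside 63.2% and 60.9%, a difference of -10.8 points (-12.9 to -8.63). In wild type the SET-26 share was higher on X than on the autosomes, at 67.9% against 56.3%, while the HDA-1 share was again lower, at 55.1% against 64.4%.

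Summits of all 3 factors on X fell mostly between genes. In glp-1(e2141), 54.3% of SET-26, 66.0% of HCF-1 and 60.4% of HDA-1 X summits were intergenic, in a chromosome that is 44.5% intergenic. Coding exons, which make up 19.97% of X, held 12.8%, 4.62% and 7.25% of the summits. For SET-26 the autosomes differed, with 38.1% intergenic and 20.3% coding summits. The median distance from an X summit to the nearest protein-coding start was shortest for HCF-1, at 963 bp, and was 1100 bp with SET-26 and 1404 bp with HDA-1.

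For gene counts each peak was given, on each strand, only to the nearest start among the genes whose promoter window it overlapped. By this rule, of 2537 protein-coding genes on X outside the excluded stretch, 1207 carried a peak of at least 1 factor at their promoter in glp-1(e2141). HDA-1 lay at 1177 of them, or 46.4% (44.4 to 48.4) of the X genes, HCF-1 at 657, or 25.9%, and SET-26 at 610, or 24.0%. All 3 factors met at 498 genes, HDA-1 stood alone at 444, SET-26 at 21 and HCF-1 at 3. In wild type 894 genes carried a peak, 212 of all 3 factors and 476 of HDA-1 alone. HCF-1 then lay at 9.26% of the X genes, and at none of them without another factor.

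The GAGAGA repeat was frequent at X summits. In windows of 300 bp, 41.6% of SET-26, 39.1% of HCF-1 and 34.5% of HDA-1 X summits held GAGAGA or TCTCTC, beside 13.9% of 300 bp tiles of X. In the strongest quintile of each list by -log10 q the shares were 59.6%, 57.1% and 53.3%, and in the weakest quintile 26.8%, 33.5% and 25.0%. Autosomal summits stood at 35.0%, 40.2% and 43.4%. TGATAA, the core of intestinal GATA factor sites, was held by 30.4%, 40.02% and 41.6% of X summits beside 27.2% of tiles, and the E-box CACGTG by 7.98%, 8.398% and 7.55% beside 3.88%. GCGCAGG, taken from motifs of dosage compensation recruitment sites, was found at 1.44%, 1.54% and 1.49% of X summits and in 0.57% of X tiles. A match is a description of the letters in a window only.

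Across all 22 lists the X peaks merged into 3607 loci, of which 908 appeared in 1 list and 12 in every list. A further count gave 120 loci with a peak in all 13 control lists, 837 with all 3 factors in some control list and 1171 with HDA-1 as the only factor. The 12 constant loci lay at kin-29, a salt-inducible kinase, at epg-7, which acts in autophagy, at the gene pair C28G1.2/sec-15 (sec-15 encodes an exocyst subunit), at unc-115, an actin-binding protein of axon guidance, at bet-2, a bromodomain protein, at sma-9, a zinc-finger cofactor of body-size signalling, and at ain-1, a GW182-related protein of the microRNA silencing complex. The others lay in an intron of ldb-1, over the mir-54 to mir-56 microRNA cluster, over a 12548 bp region around C30E1.4, and over non-coding RNA genes named W01H2 and R106.

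At bet-2 HDA-1 stood at 16.3-fold in glp-1(e2141), 19.4 in wild type, 29.1 on glp-1 RNAi and 24.6 on L4440. Against antibody background, HCF-1 there was 4.67 without and 4.39 with a germline, and it was 15.9, 9.56 and 5.41 against H3 in glp-1(e2141), on glp-1 RNAi and on L4440. SET-26 at bet-2 ran from 3.57 to 6.48 in its 4 control lists. Folds of different factors come from different antibodies and controls and are not on 1 scale, so they are set side by side here without ranking the factors. With set-26 absent, HCF-1 at bet-2 was 5.20 in glp-1(e2141), 3.77 on glp-1 RNAi and 3.02 on L4440, below each of its controls. HDA-1 there was 26.8 on glp-1 RNAi and 15.005 on L4440 without set-26, and 29.999 and 20.6 without hcf-1.

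At kin-29 the 4 control lists of HDA-1 ran from 11.6 to 14.9 and those of SET-26 from 4.73 to 5.74. HCF-1 stood at 2.32 and 1.91 against antibody background. Against H3 it was 10.6 in glp-1(e2141), 5.82 on glp-1 RNAi and 2.71 on L4440, and without set-26 it was 4.35, 2.64 and 1.62. At the W01H2 locus, 4547 bp from the nearest protein-coding start, HDA-1 had the highest X value of its glp-1(e2141) list at 24.3, with 25.8 in wild type, 31.6 on glp-1 RNAi and 24.5 on L4440. SET-26 there ran from 3.38 to 6.397. Over mir-54 to mir-56, HDA-1 ran from 10.6 to 15.9 in the control lists and was 10.3 and 5.92 without set-26 on glp-1 RNAi and L4440. At each of the 12 loci the L4440 list without set-26 gave the lowest of the 8 HDA-1 values, and the lowest of the 8 HCF-1 values came from a list without set-26.

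**Figure D3:**
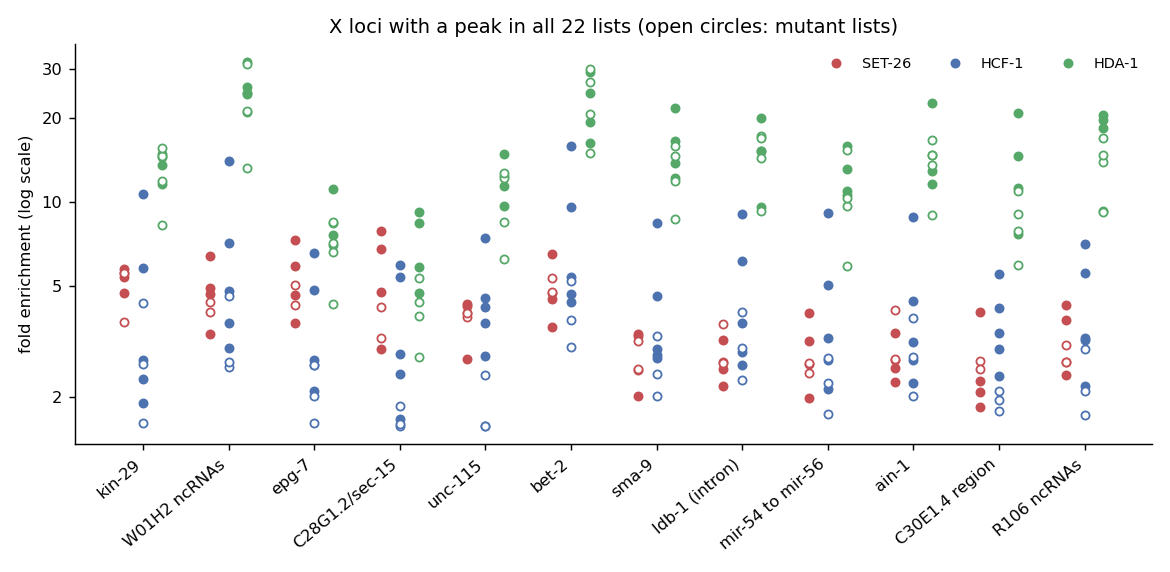
Fold enrichment (log axis) at the 12 X loci with a peak in all 22 lists, 1 point per list. Filled circles are control lists and open circles mutant lists. Folds of different factors are not on 1 scale, and within HCF-1 the lowest point of every locus is an open circle.

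The strongest SET-26 sites on X differed from these. In glp-1(e2141) they lay upstream of AC8.10 at 15.9-fold and AC8.3 at 15.4 (the shared sequence above), at R07E4.3/R07E4.5 at 14.3, at F16B12.6 at 13.1, at C27C12.4/C27C12.1 at 12.2, at asb-2, an ATP synthase subunit, at 11.7, at vha-15, a subunit of the vacuolar proton pump, at 11.2, and at F08G12.3 and the spliceosome gene snrp-40.1 at 11.03. Each was also a peak in wild type, at 7.74 to 9.66-fold. HDA-1 at these 8 sites was between 3.63 and 8.85 in glp-1(e2141), and HCF-1 between 1.71 and 6.19. HCF-1 at AC8.10 was 14.2 against H3 but 1.95 against antibody background.

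For HCF-1 the highest fold among its leading X sites was 8.67 at acl-1, an acyltransferase gene, and F59F4.3. SET-26 was 10.2 and HDA-1 4.17 there. Its other leading sites lay at bet-2, the W01H2 locus, C27C12.4/C27C12.1, pqn-39, ftt-2 (a 14-3-3 protein, 4.47-fold), F16B12.6 and a site 2109 bp from the start of set-8. HDA-1 led at the W01H2 locus, pqn-39 (17.04), bet-2, ain-1 (12.9), sma-9 (12.2), kin-29 and the R106 genes (9.26), and at the left end of X, where the telomere repeat begins, at 7.47. A telomere repeat is shared by all chromosome ends, so that last site cannot be placed on X with certainty.

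Genes were also followed by lists of known function, of which only members on X outside the stretch are counted. A gene is called bound when a peak in glp-1(e2141) was assigned to it by the nearest-start rule above. A gene whose window was overlapped by a peak nearer to another start may thus count as unbound. A peak can also count for 1 gene on each strand, so the counts are of genes and not of sites. With HDA-1 this holds for mlc-1 and mlc-2, at 3.97-fold, and for col-183 and col-184, at 1.595. Among all X genes 24.0% were bound by SET-26, 25.9% by HCF-1 and 46.4% by HDA-1. Of 6 genes of dosage compensation and X counting, SET-26 bound 3, HCF-1 2 and HDA-1 4. At sdc-2, whose product brings the dosage compensation complex to X, SET-26 was 3.73-fold, HCF-1 1.74 and HDA-1 3.96. The related sdc-1 had 3.24, 2.11 and 3.27. Among X signal elements, ceh-39 had SET-26 at 3.28 and HDA-1 at 4.18, and sex-1 had HDA-1 alone at 1.89.

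Of 7 vitellogenin and gut regulator genes, HDA-1 bound 7, HCF-1 3 and SET-26 none. Vitellogenins are yolk proteins made in the intestine of hermaphrodites. HDA-1 stood at 3.57-fold at vit-2, 3.31 at vit-5 and 4.25 at vit-3, and at 4.64 at elt-2, the main GATA factor of the intestine. HCF-1 was 1.54 at vit-2 and 2.20 at elt-2. Because neighbouring vitellogenin genes are near-identical, reads among them may be shared. In wild type HDA-1 was again at all 7, with 5.94 at vit-2.

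Among muscle genes the counts were 11 of 11 for HDA-1, 6 for SET-26 and 4 for HCF-1. The actin gene act-4 had SET-26 at 3.10-fold, HCF-1 at 2.37 and HDA-1 at 5.26, and the troponin genes mup-2 and unc-27 had HDA-1 at 5.57 and 3.59. Of 27 nuclear hormone receptors, HDA-1 bound 19, HCF-1 14 and SET-26 10. The highest was nhr-1, with HDA-1 at 12.2, SET-26 at 2.80 and HCF-1 at 2.56, followed by nhr-48 with HDA-1 at 6.67. Of 13 detoxification genes HDA-1 bound 9, HCF-1 5 and SET-26 4, and HDA-1 at cyp-43A1, a cytochrome P450, was 4.08.

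Lists of neuronal, homeobox and collagen genes had low counts. Of 32 neuropeptide genes HDA-1 bound 3, and SET-26 and HCF-1 1 each, the one with all 3 factors being nlp-76, at 5.42 for HDA-1. Homeobox genes were bound in 5, 1 and 2 of 22 cases by HDA-1, HCF-1 and SET-26, and collagens and cuticle genes in 9, 2 and 1 of 32. Of 50 genes of neurotransmission and channels, HDA-1 bound 15, HCF-1 8 and SET-26 7. Among them, the promoter windows of the glutamate receptor gene glr-6 and the ATP synthase gene asg-2 shared a SET-26 peak of 11.5-fold, and syd-2, which organises presynaptic zones, had HDA-1 at 9.88 and SET-26 at 5.07. At unc-18, needed for synaptic vesicle release, the 3 factors were at 3.63 (SET-26), 3.28 (HCF-1) and 4.16 (HDA-1).

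Among 8 longevity, stress and hormone signalling genes, HDA-1 bound 6, HCF-1 4 and SET-26 3. The 3 bound by SET-26 were kin-29, the developmental timing gene lin-14, with HDA-1 at 13.8 and SET-26 at 3.401, and the p38 pathway kinase sek-1, with HDA-1 at 6.09 and SET-26 at 2.62. HDA-1 alone lay at aak-2, a catalytic subunit of AMP kinase, at 3.74. Of 15 chromatin genes HDA-1 bound 9, and SET-26 and HCF-1 7 each. At utx-1, an H3K27 demethylase, SET-26 was 7.14 and HDA-1 3.33. At set-20 HDA-1 was 7.53 and SET-26 3.65. Housekeeping genes are few on X, and among them vha-12 had SET-26 at 4.62, vha-20 SET-26 alone at 2.06, the elongation factor gene eef-1A.2 HDA-1 at 9.75 and SET-26 at 5.998, and rpl-11.2 SET-26 at 5.20. Of 8 patterning genes HDA-1 bound 6, with 7.72 at sem-5, the Grb2 homologue. Of 70 microRNA genes, with the same window, HDA-1 bound 34, HCF-1 15 and SET-26 10, among them cel-mir-34 with HDA-1 at 11.3, SET-26 at 3.41 and HCF-1 at 2.67. For microRNA genes every overlapped window counted, so these counts are not comparable with the shares of all X genes. No share of all genes was computed by that rule, so the counts cannot be read as high or low. They are also counts of genes and not of sites. For example, cel-mir-54, cel-mir-55, cel-mir-56 and cel-mir-55b carried the same peak of each factor, with SET-26 at 2.48.

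Transfer RNA genes are numerous on X, which holds 264 outside the stretch beside 336 on the autosomes. A peak within 500 bp of the start was found for HDA-1 at 227 of the 264, or 86.0%, beside 72.3% of the autosomal ones, for HCF-1 at 194, or 73.5% beside 78.0%, and for SET-26 at 97, or 36.7% beside 57.1%. In wild type HCF-1 was found at 39, or 14.8%, beside 83.0% on the autosomes, a difference of -68.3 points (-73.5 to -61.8). On L4440 against H3, however, HCF-1 was found at 66.3% of the same X genes, beside 81.3%. HDA-1 was at 192 in both of these settings. Reads of near-identical tRNA genes may be shared among copies.

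Sites of SET-26 and HCF-1 found in germline-less worms were mostly missing on X when the germline was present. Those of HDA-1 were missing on X a few points more often than on the autosomes together. Of 1179 SET-26 X peaks in glp-1(e2141), 508 were overlapped by a wild type peak, or 43.1% (40.2 to 46.0), beside 79.9% on the autosomes (71.6% to 83.7%) and 76.4% of the whole list. For HCF-1 the count was 285 of 1168, or 24.4%, beside 58.0% (47.8% to 65.5%) and 54.1%. HDA-1 kept 1500 of 2677, or 56.0%, beside 60.7% (58.3% to 63.3%) and 59.6%, a difference of -4.62 points (-6.75 to -2.50). From glp-1(e2141) to wild type the X lists of SET-26 and HCF-1 fell from 1179 to 555 and from 1168 to 310. Their autosomal lists went from 12157 to 11252 and from 8791 to 8422. A shorter list limits how many peaks can be kept, so these kept shares partly restate the counts. Between glp-1 RNAi and L4440, SET-26 kept 426 of 1039 X peaks, or 41.0%, beside 67.2% on the autosomes and 64.9% of the list. HCF-1 kept 313 of 1223, or 25.6%, beside 56.8% and 53.9%, and HDA-1 1483 of 2670, or 55.5%, beside 59.4% and 58.5%. The HDA-1 share of the autosomes ran from 55.5% on V to 64.4% on I, so X was level with V. The limit of shorter lists applies here too, with 481 SET-26 and 336 HCF-1 X peaks on L4440.

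Strength bore on this for every factor. Among the strongest quintile of X peaks in glp-1(e2141), 99.6% of SET-26, 99.8% of HDA-1 and 75.2% of HCF-1 peaks were found in wild type. In the weakest quintile the shares were 6.78%, 11.4% and 2.14%. Autosomal SET-26 peaks of the same weak range were found in 61.8% of cases. With the autosomes weighted to the strength of the X peaks, the SET-26 share there was 77.7%, the HCF-1 share 47.7% and the HDA-1 share 60.2%.

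**Figure D4:**
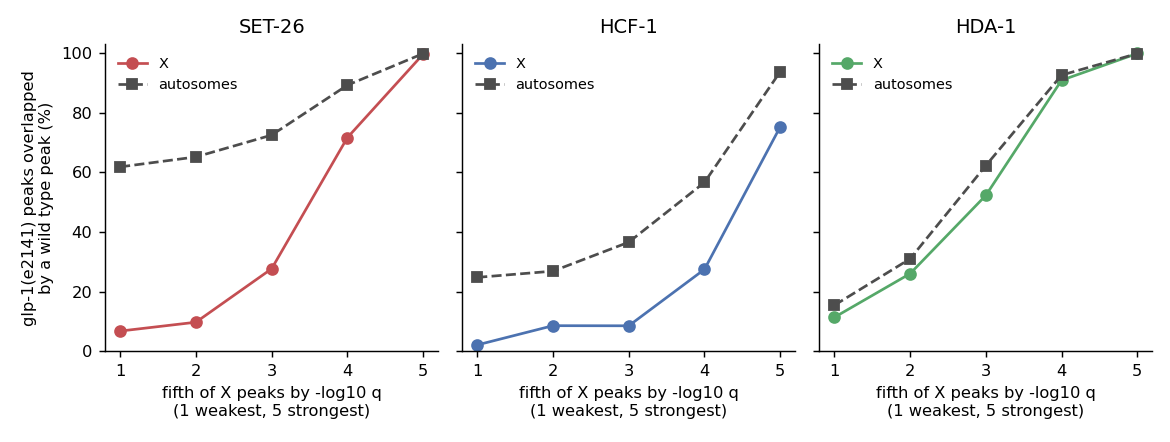
Share of glp-1(e2141) peaks overlapped by a wild type peak, by quintiles of X peak strength (-log10 q, 1 weakest to 5 strongest), for X (circles, solid) and for autosomal peaks in the same strength ranges (squares, dashed). For SET-26 the weakest quintile stands at 6.78% on X and 61.8% on the autosomes, while for HDA-1 the lines run close together.

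By class, 95.2% of the X loci bound by all 3 factors in glp-1(e2141) had a peak of some factor in wild type, 33.6% of HDA-1-only loci and 20.2% of SET-26-only loci. On the autosomes these shares were 93.2%, 26.6% and 84.8%, so that the SET-26-only loci had the widest gap of the 3 classes. The leading promoter sites were kept. HDA-1 at kin-29 was 11.6-fold without and 14.9 with a germline, and SET-26 at R07E4.3/R07E4.5 was 14.3 and 8.68. HCF-1 at acl-1/F59F4.3 was 8.67 and 2.82. Of SET-26 promoter sites absent in wild type the strongest lay at folr-1/F21G4.6 (3.24-fold; folr-1 encodes a folate receptor), T07F12.1, spc-1 (alpha spectrin), ZC449.1 and tmbi-4, the last 4 between 2.63 and 2.88. For HCF-1 they lay at F20D1.3 (3.22), klp-13 (a kinesin, 2.78), atg-16.1 (autophagy, 3.67), acox-1.6 (an acyl-CoA oxidase, 3.76) and C04C11.25 (2.86). For HDA-1 they lay at aakg-4 (an AMP kinase gamma subunit, 3.16), ZK1073.1 (3.86), pmpl-1 (3.62), C56E10.3 (3.32) and C31H2.4 (3.09). None of these 15 sites reached 4-fold, while the kept leading sites of SET-26 and HDA-1 stood above 11-fold. The kept leading sites of HCF-1 ran from 3.27 at pqn-39 to 8.67 at acl-1/F59F4.3. Fold did not fully part them from the absent ones, since atg-16.1 and acox-1.6 stood above pqn-39.

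The RNAi pair of lists named partly other sites. SET-26 was kept on L4440 at AC8.10 (20.3-fold on glp-1 RNAi, 7.55 on L4440), asb-2 (15.9 and 7.15) and vha-15 (14.2 and 9.17). It was absent on L4440 at sid-5 (3.51), which acts in systemic RNAi, T09B9.4, F28H6.8, svh-2 and nhr-48. HDA-1 was absent on L4440 at ZK563.7/sorf-1 (3.63), pgp-3 (a P-glycoprotein transporter, 3.10), dhs-26, F23D12.11 and the kinase gene abl-1 (3.10). HCF-1 was absent on L4440 at F16B12.6 (5.21), F20D1.3 (4.71), tap-1/C44H4.4, M163.11 and set-20 (4.27). The wild type lists against antibody background differed at some of these. HCF-1 was called there at F16B12.6 (2.30) and at the promoter of set-20 (1.64), and SET-26 at that of nhr-48 (1.89). At F20D1.3 HCF-1 was absent in both. Near tRNA genes HCF-1 kept 117 of 159 X peaks, or 73.6%, and elsewhere 196 of 1064, or 18.4%.

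In reverse, nearly all X peaks of worms with a germline were found in glp-1(e2141). SET-26 had 529 of 555, or 95.3%, beside 65.7% on the autosomes and 67.2% of the whole list. HCF-1 had 297 of 310, or 95.8%, beside 62.5% and 63.7%, and HDA-1 1677 of 1725, or 97.2%, beside 93.0% and 93.9%. On X the wild type lists were thus close to subsets of the germline-less lists for each factor. For SET-26 and HCF-1 the shorter wild type lists on X bear on these shares too, so they are not independent of the kept shares above.

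Before the mutants, a limit of the HCF-1 lists against H3 has to be given, since every mutant list used H3. In glp-1(e2141), 1041 of 1968 HCF-1 X peaks against H3, or 52.9%, were overlapped by a peak against antibody background, beside 73.3% on the autosomes. On L4440 148 of 336 X peaks overlapped such a peak of worms on OP50, beside 5688 of 6638 on the autosomes. Of the L4440 X summits 37.2% lay within 500 bp of a tRNA start, beside 3.43% on the autosomes. The X and autosomal peaks of that list thus differ in makeup, and their shares are not like for like. The strongest X peaks of the L4440 HCF-1 list by -log10 q lay at lev-9 (31.0-fold; it clusters acetylcholine receptors), C40H5.2 (24.1), F55F3.7 (21.8), ser-2 (a tyramine receptor, 18.3) and F11D5.1 (16.96). None of the 12 strongest overlapped the wild type list against antibody background. At lev-9 SET-26 had no overlapping peak in glp-1(e2141). What these sites represent was not tested, and HCF-1 results are therefore also given for the H3 peaks that overlap a peak against antibody background.

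Without set-26, most HCF-1 control peaks on X were not called. On glp-1 RNAi the mutant list kept 102 of 1223 control X peaks, or 8.34% (6.85 to 10.03), beside 7.93% on the autosomes and 8.87% of the whole list. The interval of the difference, -1.12 to 2.18 points, included 0. In glp-1(e2141) it kept 586 of 1968, or 29.8%, beside 27.2% and 28.3%, a difference of 2.56 points (0.41 to 4.78). On L4440 it kept 82 of 336, or 24.4%, beside 45.5% (42.2% to 47.1%) and 44%. Among kept X peaks the median ratio of mutant to control fold was 0.44, 0.52 and 0.62 in these 3 settings, beside 0.33, 0.42 and 0.66 on the autosomes. Restricted to peaks also called against antibody background, the kept shares on X were 8.74%, 42.8% and 14.2%, the last being 21 of 148 peaks, beside 9.94%, 34.5% and 51.9% on the autosomes. Antibody lists existed only for worms on OP50. On glp-1 RNAi and L4440 this restriction thus drew on peaks of other worms on another food, and only in glp-1(e2141) were the worms the same. The interval of the first difference, -3.04 to 0.96 points, included 0, and the other differences were 8.37 (5.21 to 11.6) and -37.7 points (-42.6 to -31.0).

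The HCF-1 sites that remained were the strong ones. In glp-1(e2141) the strongest quintile kept 332 of 394 X peaks and the weakest 21 of 394. There bet-2 was 15.9-fold in the control and 5.20 without set-26, AC8.10 14.2 and 2.63, AC8.3 12.98 and 2.68, kin-29 10.6 and 4.35, and pqn-39 10.2 and 2.99. Absent were acl-1/F59F4.3 (8.46 in the control), asg-2/glr-6 (5.12), F53H4.4/csb-1 (5.23), sek-1 (4.61) and idh-2/C34F6.7 (4.83; idh-2 encodes a mitochondrial isocitrate dehydrogenase). All 5 absent sites had lower control values than the 5 kept ones.

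On glp-1 RNAi the kept HCF-1 promoter sites were C40H5.2 (13.5 and 3.65), bet-2, AC8.10 (11.5 and 1.82), C01C4.3/C02F12.8 (9.32 and 3.14) and pqn-39 (6.63 and 2.09). Absent were AC8.3 (8.97), C27C12.4/C27C12.1 (6.34), asb-2 (5.84), F53H4.4/csb-1 (5.97) and lmp-1 (5.26), a lysosomal membrane gene. AC8.10 and AC8.3 carry the same summit sequence, so their different calls cannot be read as 2 independent sites. On L4440 the kept leaders were C40H5.2 (24.1 and 11.6), C01C4.3/C02F12.8 (16.9 and 7.65), lgc-18 (9.76 and 4.93), another site at C01C4.3 (7.16 and 3.23) and slcf-2 (6.37 and 2.90). Absent there were AC8.10 (3.55), AC8.3 (3.51), pqn-39 (2.82), F28H6.8 (3.13) and dpy-23 (3.02). C40H5.2, C02F12.8 and lgc-18 are among the L4440 sites without a peak against antibody background in wild type. Where only peaks of at least 3-fold were taken, X kept more than the autosomes on L4440, by 16.6 points.

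HDA-1 kept most X sites without set-26 when no germline was present. On glp-1 RNAi 1798 of 2670 X peaks were kept, or 67.3% (65.5 to 69.1), beside 62.6% on the autosomes (59.9% to 65.3%) and 63.7% of the whole list, a difference of 4.71 points (2.65 to 6.72). On L4440 669 of 1711 were kept, or 39.1%, beside 39.2% and 39.3%, and the interval of the difference ran from -2.69 to 2.51 points. The median ratio of folds among kept X peaks was 0.77 and 0.65, beside 0.76 and 0.66 on the autosomes. On glp-1 RNAi HDA-1 at bet-2 was 29.1-fold in the control and 26.8 without set-26, at ain-1 22.7 and 16.6, and at sma-9 21.6 and 14.6. Sites absent without set-26 were weaker, such as ZK563.7/sorf-1 (3.63), T25C12.3 (2.93), C25B8.8 (2.86), F28H6.8 (2.78) and lact-1 (2.72). On L4440 the absent leaders were cah-4 (a carbonic anhydrase, 3.45), spat-3 (3.38), vit-1 (3.11), T18D3.1/T18D3.9 (3.00) and C03H12.1 (2.68), while kin-29 was 13.6 and 8.26 and pqn-39 13.9 and 8.88.

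Without hcf-1, SET-26 kept 636 of 1039 X peaks on glp-1 RNAi, or 61.2% (58.2 to 64.2), beside 67.9% on the autosomes (63.6% to 70.0%) and 67.4% of the whole list. The difference was -6.70 points (-9.82 to -3.66). On L4440 it kept 410 of 481, or 85.2%, beside 82.9% and 83%, with an interval of the difference from -1.17 to 5.34 points. Median fold ratios among kept X peaks were 0.75 and 1.06, beside 0.75 and 1.05 on the autosomes. The strongest sites were lower on glp-1 RNAi: AC8.10 was 20.3-fold in the control and 8.15 without hcf-1, asb-2 15.9 and 7.01, R07E4.3/R07E4.5 14.5 and 6.26, and vha-15 14.2 and 7.24. On L4440 vha-15 was 9.17 and 9.51, R07E4.3/R07E4.5 9.99 and 6.46, and glit-1/dnj-14 9.07 and 7.43. Absent on glp-1 RNAi were F28H6.8 (2.99), T08D2.8 (2.90), K09C4.5/K09C4.10 (2.62), gid-2 (2.42) and K11G12.6 (2.24), and on L4440 F48B9.8 (2.47), T08D2.8 (2.17), C25F6.1, F17H10.1 and kynu-1 (1.91). T08D2.8 was thus absent in both settings.

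HDA-1 kept 1909 of 2670 X peaks without hcf-1 on glp-1 RNAi, or 71.5% (69.7 to 73.2), beside 70.0% on the autosomes and 70.4% of the whole list, and the difference of 1.47 points had an interval from -0.51 to 3.39. On L4440 it kept 1396 of 1711, or 81.6%, beside 76.6% (75.7% to 77.1%) and 77.8%, a difference of 4.97 points (2.81 to 7.03). Both mutants were compared with the same HDA-1 control lists. Median fold ratios among kept X peaks were 0.85 and 0.95, beside 0.86 and 0.93 on the autosomes. At bet-2 HDA-1 was 29.1-fold in the control and 29.999 without hcf-1 on glp-1 RNAi, at kin-29 14.5 and 15.6, and at ain-1 22.7 and 14.8. The strongest absent sites were F41C6.7 (2.90), lact-1 (2.72), fipr-3/F23D12.2 (2.64), F22F1.2 (2.69) and usp-33/gas-1 (2.70; gas-1 encodes a complex I subunit) on glp-1 RNAi, and mec-10 (2.39), F22F1.2 (2.29), memb-1, ZC373.3/ZC373.2 and C28G1.10 on L4440.

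**Figure D5:**
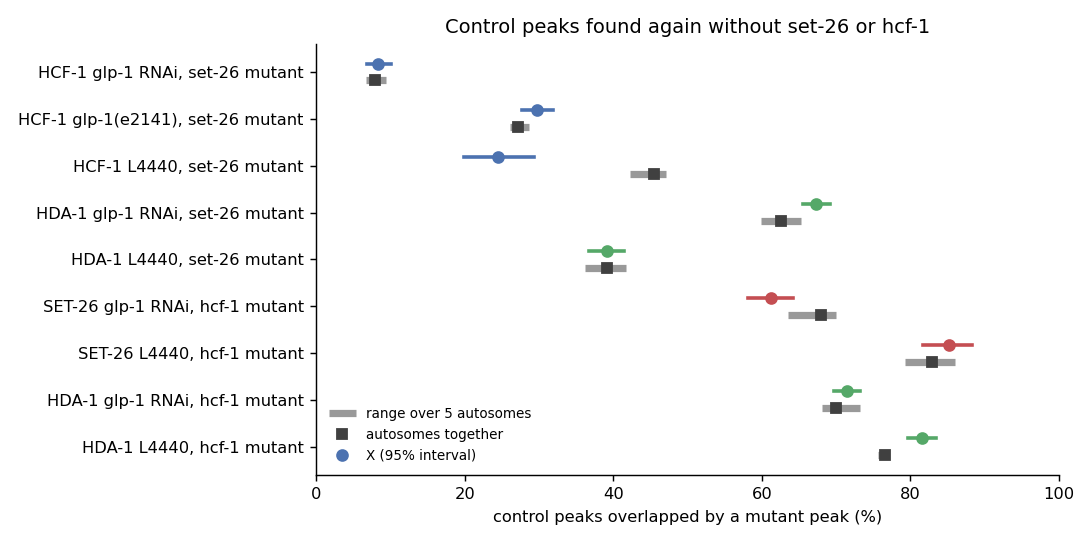
Share of control peaks overlapped by a peak of the matching mutant list, for the 9 mutant comparisons. Coloured circles give X with its 95% interval, dark squares the autosomes together and grey bars the range over the 5 autosomes. HCF-1 on L4440 without set-26 has the widest gap, with X at 24.4% and the autosomes at 45.5%, and SET-26 on glp-1 RNAi without hcf-1 the next, at 61.2% and 67.9%.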

How the data were processed

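CUT&RUN reads of SET-26, HCF-1, HDA-1, histone H3 or antibody background from 83 samples of day 1 adult worms were processed by the authors, who trimmed them with Trim Galore 0.6.5, aligned them to WBcel235 with Bowtie2 2.4.3, merged the replicates of each group, and called peaks with MACS2 2.1.4 (q of 0.01, fragments of 200 bp, all duplicates kept, the larger library scaled to the smaller). The 22 deposited lists hold, per summit, the fragment pileup as a signal scaled by the authors to the smaller library. The deposited fold enrichment divides that pileup by the background expected around it, as a ratio, and the deposited -log10 q is the adjusted Poisson p-value of the caller. Tag totals of merged libraries ran from 27.6 to 71.5 M with a factor antibody and from 27.1 to 85.6 M in the controls. Since all duplicates were kept and replicates were merged, neither PCR duplicates nor replicate spread could be judged, and intervals cover counting error only.

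Summits of 1 peak were joined, with the fold and -log10 q of the strongest. Peaks on X outside 0.3 to 1.6 Mb were compared with autosomal peaks by shares with exact Clopper-Pearson 95% intervals, by the Newcombe interval of the difference, and by the range over the 5 autosomes. Lists shared a site where peaks overlapped by 1 bp or more. No test across samples was possible on merged lists. Genes were taken from the Ensembl release 115 annotation of WBcel235, the build of the lists. Named sites were the 8 X peaks of highest -log10 q for each factor in glp-1(e2141), the 5 kept and 5 absent promoter peaks of highest -log10 q for each comparison, and up to 4 members of each gene list. HCF-1 sites against H3 without an antibody peak and the loci in all lists were chosen after their values were seen. All members and lists were chosen with earlier results of these data known. The overlap and interval routines were tested on simulated data. Alternatives were the whole X, stricter folds and q, other overlap rules, lists of equal length, other promoter windows, single autosomes left out, strength-standardised autosomes, and HCF-1 peaks limited by the other control. Python 3.11.15 was used with numpy 2.4.6, pandas 2.3.3, scipy 1.17.1 and matplotlib 3.10.9.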

Additional observations from a re-analysis of the deposited data

How the results depend on the processing

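Of 380 alternative values for 48 comparisons of X with the autosomes, 349 kept both the direction and the side of 0 on which their interval lay, and 8 changed sign. A minimum fold of 3 changed more of them than any other single setting. It turned the X minus autosome difference for SET-26 peaks overlapped by HCF-1 to -33.95 points in glp-1(e2141) and -12.5 on glp-1 RNAi, HCF-1 overlapped by HDA-1 on L4440 to -4.68, the HCF-1 peaks kept without set-26 on L4440 to 16.6, the SET-26 peaks kept without hcf-1 on L4440 to -6.56 and the SET-26 promoter share to 4.10. The same minimum gave -42.4 for SET-26 peaks in HCF-1 in wild type, -13.8 for HCF-1 in SET-26 in wild type, -3.39 for HDA-1 peaks kept on L4440, 2.80 for HCF-1 without set-26 on glp-1 RNAi, 0.033 for the same in glp-1(e2141), 1.24 for HDA-1 without set-26 on glp-1 RNAi, 4.51 for HDA-1 without hcf-1 on L4440 and -1.60 for the HCF-1 promoter share. The SET-26 promoter share also turned to 3.29 with a window of 500 bp upstream to 100 bp downstream and to 0.086 when the strongest summit had to lie in the window. It was -2.40 on the whole X and -2.51 at a -log10 q of at least 5.

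The difference for SET-26 peaks in HCF-1 in wild type was -5.47 on the whole X, -5.27 at a -log10 q of at least 5 and -4.35 against strength-standardised autosomes, and its interval then left out 0. For HCF-1 without set-26 on glp-1 RNAi the difference was 5.64 on the whole X, 2.24 when 50% of the peak had to be covered, 28.5 with lists of equal length and 3.06 against standardised autosomes. In glp-1(e2141) it was 1.101 at the stricter q and 1.57 without sites near tRNA genes. SET-26 on L4440 without hcf-1 gave 5.48 with 50% covered, 4.17 with summits within 250 bp and 3.68 without tRNA sites, and HDA-1 on glp-1 RNAi without hcf-1 gave 2.02 against standardised autosomes. The settings on tRNA sites, on HCF-1 peaks that overlap a peak against antibody background and on standardised autosomes (other than for set-26) were added after seeing the data. The cause of these changes was not tested. The X shares themselves moved beyond their intervals in 130 of 293 alternatives. No paired analysis was possible because each list merges the replicates of its group, and for the same reason no replicate could be left out. How depth bears on the calling of weak peaks cannot be told from merged lists.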

Other observations

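MicroRNA genes on X, which act by pairing with target messages, were followed by the same promoter window. HDA-1 in glp-1(e2141) was 11.3-fold at cel-mir-34, 10.7 at cel-mir-84, a relative of let-7, and 10.6 at the cluster of cel-mir-54, cel-mir-55 and cel-mir-56. In wild type these 3 values were 8.59, 6.57 and 13.2. SET-26 was 3.41 at cel-mir-34 and 2.48 at the cluster, and had no peak at cel-mir-84. SET-26 instead was highest at cel-mir-1829b among the microRNAs named here, at 5.36, with HDA-1 at 5.37, and stood at 4.13 at cel-mir-392. On L4440 HCF-1 had no peak at cel-mir-84 or cel-mir-1829b, where it was 2.25 and 4.71 on glp-1 RNAi. The HCF-1 peak counted for cel-mir-1829b is the one named above for F20D1.3, so it is not a further site. These genes were chosen after their values were seen.

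Peaks near tRNA genes differed from other X peaks in how often they were kept. HDA-1 in wild type kept 128 of 165 glp-1(e2141) X peaks within 500 bp of a tRNA start, or 77.6% (70.4 to 83.7), and 54.6% elsewhere. For HCF-1 against antibody background the order was the other way, with 20 of 139, or 14.4%, near tRNA genes and 25.8% elsewhere. HCF-1 in glp-1(e2141) without set-26 kept 42.5% near tRNA genes and 28.6% elsewhere. SET-26 on L4440 without hcf-1 kept 8 of 17 near tRNA genes and 402 of 464 elsewhere. Copies of tRNA genes can share reads, and whether that bears on these shares was not tested.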
